A study of Homo sapiens with 3 samples.

Results

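The distal short arm of chromosome 1, taken here as its first 28 Mb in the hg19 build, was examined for binding of XPB and XPD in HT1080 cells. It held 593 of the 21555 XPB peaks and 407 of the 14570 XPD peaks of the genome, that is all peaks whose summit lay at or below position 28000000. Within the region the members were therefore set by position alone, but the region was chosen with earlier results of these data known. The study consists of 1 ChIP library made with a rabbit polyclonal anti-XPB antibody, 1 made with a rabbit polyclonal anti-XPD antibody and 1 unenriched input library, whose values were not analysed here. All came from 1 pool of crosslinked chromatin of HT1080, an established human fibrosarcoma line grown in MEM-alpha with 5% serum; nuclei were crosslinked with 5% formaldehyde and fragments of 400 to 700 bp were selected. The shared protocol text names an antibody against another protein, CSB, and the antibody field of each sample was followed instead.

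XPB and XPD are subunits of TFIIH, a complex whose helicases unwind promoters where RNA polymerase II starts and unwind damaged DNA during nucleotide excision repair. Distal 1p is known as a gene-rich chromosome arm, and it carries the RNU1 genes, which encode the U1 small nuclear RNA of the spliceosome that recognises 5′ splice sites. U1 genes are short, lie in near-identical copies and are transcribed by RNA polymerase II at high rates. In the RefSeq gene table of another assembly (GRCh38.p14) the 4 RNU1 genes of this arm stand in the order RNU1-1, RNU1-3, RNU1-4 and RNU1-2. There RNU1-1 follows NECAP2, RNU1-3 follows NBPF1 and RNU1-2 is followed by CROCC among the protein-coding genes. No hg19 annotation or sequence was used, so no peak was assigned to a gene, and the label of 16 to 18 Mb as the U1 gene region was not checked against the files. Reads from near-identical copies cannot be told apart where the copies match. How the aligner treated such reads is not given in the sources used here, and its part in the values was not tested.

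Distal 1p was dense in peaks of both helicases. The XPB list had 21.2 peaks per Mb in distal 1p (95% exact Poisson interval 19.5 to 23.0), against 7.34 per Mb in the rest of chromosome 1 (6.99 to 7.70). In the XPD list distal 1p had 14.5 peaks per Mb (13.2 to 16.02), against 4.56 in the rest of the chromosome (4.29 to 4.85). The density ratio was 2.89 for XPB (2.62 to 3.17) and 3.19 for XPD (2.83 to 3.58), so the excess was of like size in both lists. Of the 222 windows of the rest of the chromosome, 49 held no XPB peak and 60 no XPD peak. Whether reads can be placed there was not tested. With windows empty in both lists left out, the ratio was 2.43 for XPB and 2.68 for XPD. These intervals cover counting error only: peaks of 1 library are not replicates, they lie in clusters, and no test between antibodies or regions was possible with 1 library each. The region made up 0.931% of the 1 Mb windows of the genome and held 2.75% of its XPB and 2.79% of its XPD peaks. XPB peaks covered 2.00% of distal 1p, against 0.649% of the rest of chromosome 1, and XPD peaks 1.55%, against 0.456%.

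The number of XPB peaks was 1.46 times that of XPD peaks in distal 1p (1.28 to 1.66) and 1.61 times in the rest of chromosome 1 (1.49 to 1.74), and these intervals overlapped. Over all chromosomes it was 1.48 times (1.45 to 1.51), so distal 1p was close to the ratio of the genome. XPB peaks outnumbered XPD peaks in 25 of the 28 windows of the region, and XPD peaks outnumbered XPB peaks in 0. The lists do not give the sequencing depth, and the larger number of XPB peaks was not taken as more binding.

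The density was uneven within the region. Of the 28 windows, 20 lay above the upper quartile of the windows in the rest of chromosome 1, which was 10 peaks for XPB and 6 for XPD, and the same number did so in each list. The first 7 Mb from the chromosome end held 8.71 XPB and 5.29 XPD peaks per Mb. From 7 to 14 Mb the densities were 18.1 and 12.7 per Mb. From 14 to 21 Mb they were 29.7 and 20.9 per Mb, and from 21 to 28 Mb they were 28.1 and 19.3 per Mb. The outermost stretch was thus the sparsest in both lists, and only there did the density come near the mean of the rest of the chromosome.

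The 5 densest windows were the same in both lists. They were 16 to 17 Mb (61 XPB and 38 XPD peaks), 17 to 18 Mb (58 and 44), 27 to 28 Mb (48 and 28), 9 to 10 Mb (40 and 30) and 23 to 24 Mb (31 and 27). Together they held 238 XPB peaks, or 40.1% of those in the region, and 167 XPD peaks, or 41.0%. At the other end, the window from 5 to 6 Mb held no peak of either list and the window from 13 to 14 Mb held 1 XPB and 0 XPD peaks. The first window of the chromosome held 2 of each, and that from 3 to 4 Mb held 4 XPB and 2 XPD peaks. Among the 5 sparsest were also 2 to 3 Mb for XPB (4 XPB and 4 XPD peaks) and 14 to 15 Mb for XPD (10 XPB and 3 XPD peaks).

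**Figure D1:**
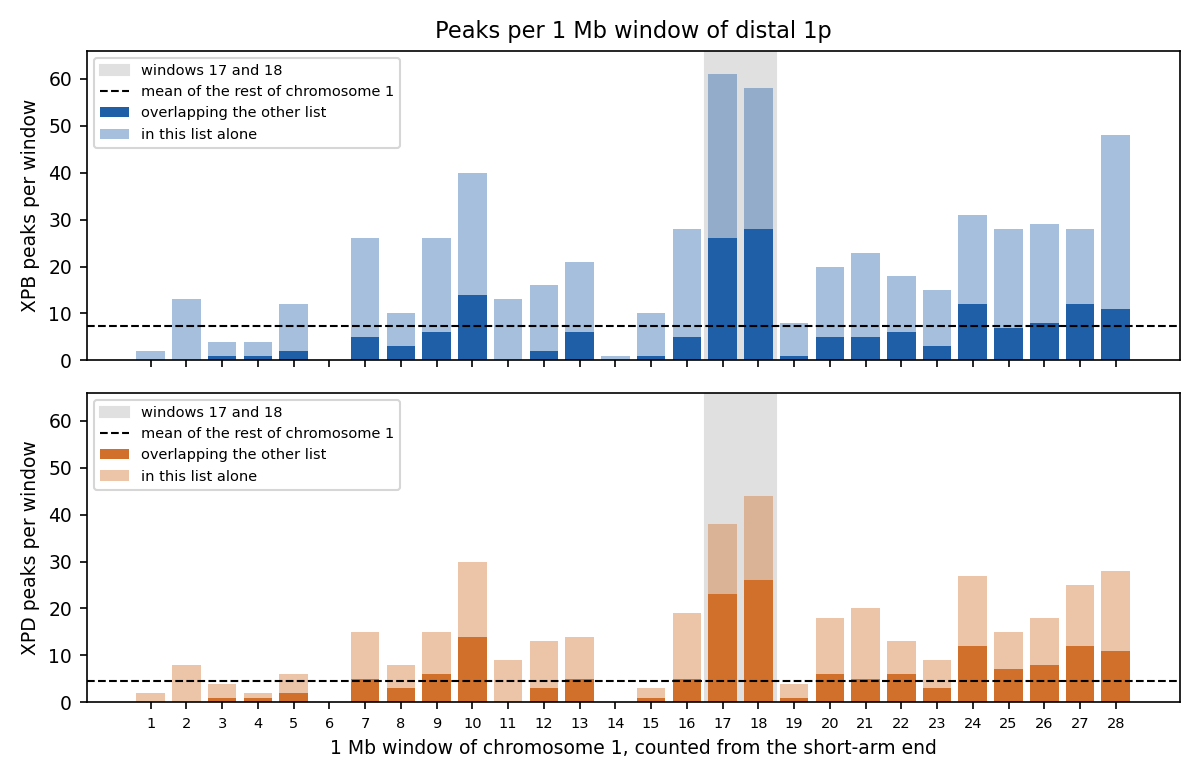
Number of XPB peaks (top) and XPD peaks (bottom) in each 1 Mb window of distal 1p, split into peaks that overlapped the other list (dark) and peaks of 1 list alone (light); the dashed line is the mean of the rest of chromosome 1, and grey marks windows 17 and 18, which are 16 to 18 Mb. Windows 17 and 18 are the tallest bars in both lists, with 61 and 58 XPB and 38 and 44 XPD peaks, and window 6 is empty.

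Window by window the lists ran together. Over the 28 windows Spearman's rho between XPB and XPD peak numbers was 0.97, and it was 0.96 without 16 to 18 Mb and 0.90 over the windows of the rest of chromosome 1. These are descriptions within 1 pair of libraries, which share the chromatin pool and the mappable sequence of each window. Per window, XPB over XPD peak numbers stayed between 1.00 and 2.00 in all windows but 1 of those that had both; the exception, from 14 to 15 Mb, had a ratio of 3.33 on 10 and 3 peaks.

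Long stretches of the region held no peak at all. The longest peak-free stretch, with neither list present, ran from 2335972 to 3752937 (1417 kb), followed by 4905877 to 6035023 (1129 kb), 12871310 to 13991871 (1121 kb) and 18236652 to 18901490 (665 kb). The fifth was much shorter, at 317 kb. The first peaks of the chromosome were an XPB peak from 809846 to 810861 (8 fragments at the summit) and an XPD peak from 884857 to 885977 (13 fragments), and neither overlapped a peak of the other list. Whether these stretches hold sequence to which reads can be placed was not tested.

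The windows from 16 to 18 Mb stood above the rest of the region in both lists. They held 119 XPB peaks, or 59.5 per Mb (49.3 to 71.2), against 18.2 per Mb (16.6 to 19.9) in the other 26 windows of distal 1p. For XPD they held 82 peaks, or 41.0 per Mb (32.6 to 50.9), against 12.5 (11.2 to 13.9). The ratio was 3.26 for XPB (2.65 to 3.998) and 3.28 for XPD (2.54 to 4.19). Both windows lay above every other window of the region in each list. On the whole of chromosome 1, no window held more XPB peaks than 16 to 17 Mb and none held more XPD peaks than 17 to 18 Mb. Of the 3007 windows of the genome, 8 held more XPB peaks than 16 to 17 Mb and 10 more than 17 to 18 Mb, while for XPD the numbers were 18 windows and 11 windows. The remaining 26 windows of distal 1p were still 2.48 times (2.24 to 2.75) as dense as the rest of chromosome 1 for XPB and 2.74 times (2.41 to 3.11) for XPD.

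The tallest summit of the region was in these windows for both helicases. The XPB peak from 16839764 to 16841191 had 184 fragments and the XPD peak from 16839777 to 16841093 had 186, and both scores stood at 3100, the ceiling of the lists. The score is the log10 of the peak caller's p-value times 10 with its sign reversed, and the height is the number of fragments stacked at the summit, not scaled to depth. The summits, at 16840693 for XPB and 16840760 for XPD, were 67 bp apart, and the peak ranked 13 by height in the XPB list of the genome and 14 in the XPD list.

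The second tallest site lay 382 kb further from the chromosome end. There the XPB peak from 17222274 to 17223569 had 96 fragments and a score of 3100, and the XPD peak from 17222049 to 17224094 had 88 fragments and a score of 1822. The summits were 12 bp apart. Another tall site stood close by: XPB from 17231067 to 17232467 with 35 fragments and a score of 899, and XPD from 17231068 to 17232296 with 37 fragments and a score of 375. No other XPB summit of distal 1p exceeded 39 fragments, while the next tallest XPD summit, outside these windows, had 67. The 2 tallest sites of the region were thus the same for both helicases, at nearly equal heights in each.

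**Figure D2:**
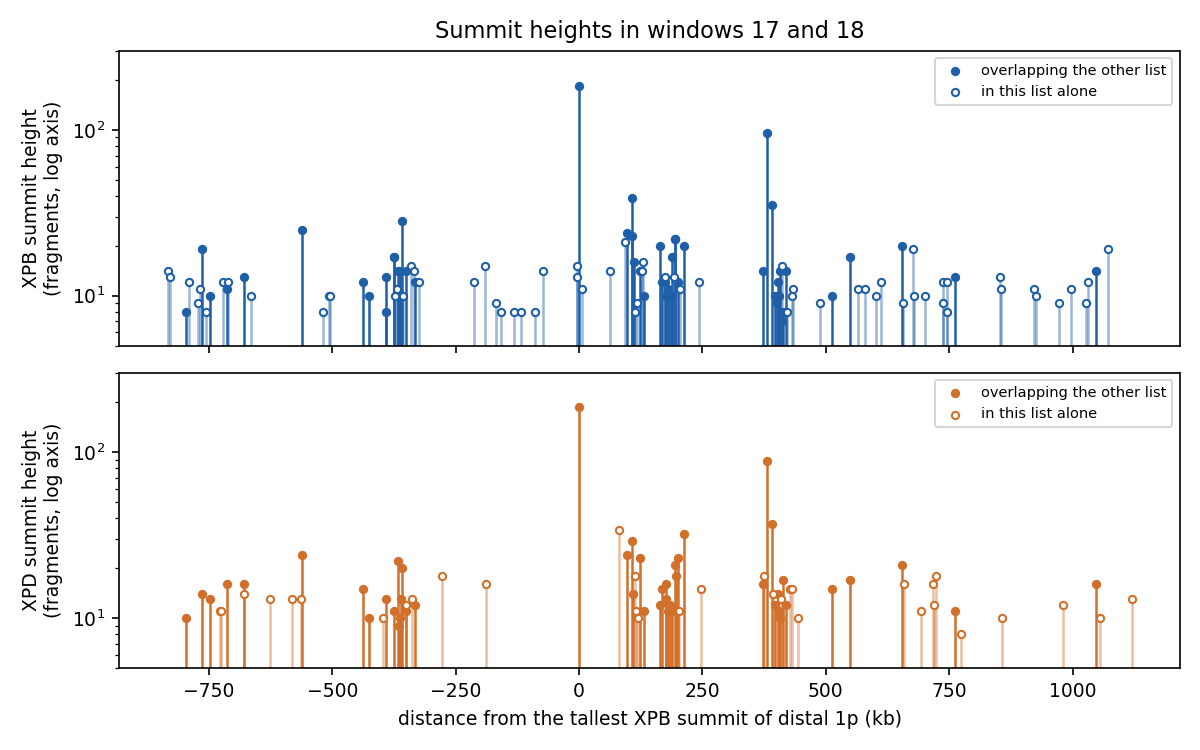
Summit height in fragments (log axis) of every XPB peak (top) and XPD peak (bottom) of windows 17 and 18 against the distance in kb from the tallest XPB summit; filled points overlapped a peak of the other list and open points did not. The 2 tallest sites, 382 kb apart, have 184 and 96 fragments for XPB and 186 and 88 for XPD, and most other summits lie between 8 and 30 fragments in tight groups.

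Most peaks of 16 to 18 Mb were low and lay in runs. In bins of 100 kb, the 4 fullest of 20 bins held 59 of the 119 XPB peaks (49.6%) and 50 of the 82 XPD peaks (61.0%). These bins were the same in both lists, starting at 16400001 (16 XPB and 12 XPD peaks), 16900001 (12 and 9), 17000001 (16 and 14) and 17200001 (15 and 15). The bin between the last pair, starting at 17100001, held no peak of either list. The peak-free stretch there ran from 17088525 to 17213285 (125 kb).

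When peaks of 1 list whose intervals lay at most 5 kb apart were joined, the longest runs of chromosome 1 fell in these windows. For XPB they were 12 peaks from 17014723 to 17048168, 10 from 16465080 to 16484435, 10 from 17238217 to 17262651 and 9 from 16946633 to 16973113, and no run elsewhere on the chromosome had more than 7. For XPD they were 10 peaks from 17015550 to 17044542, 8 from 17231068 to 17253969 and 6 from 16946532 to 16963656, and no run elsewhere had more than 5. The longest XPB run had peaks over 63.1% of its 33.4 kb, and 9 of its 12 peaks overlapped an XPD peak. Of all peaks in 16 to 18 Mb, 67.2% of XPB and 63.4% of XPD peaks belonged to a run of at least 2, against 28.7% and 19.2% in the rest of chromosome 1. For distal 1p as a whole the shares were 43.8% and 35.9%. For each summit the distance to the nearest other summit of its list was taken. Its median was 3.42 kb for XPB and 3.77 kb for XPD in 16 to 18 Mb. In the rest of the chromosome it was 15.3 kb and 24.2 kb. Run shares at a fixed gap and neighbour distances both depend on peak density, which was 59.5 against 7.34 per Mb for XPB. Whether they differ beyond the density was not tested.

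Peaks in 16 to 18 Mb also scored higher and were wider. The median score was 224 for XPB (interquartile range 175 to 334), against 191 (166 to 232) in the other windows of distal 1p, and 219 for XPD (183 to 325), against 186 (164 to 232). Scores of 300 or more were reached by 34 XPB peaks, or 28.6% (95% exact Clopper-Pearson interval 20.7 to 37.6), against 11.4% (8.68 to 14.6) in the other windows. For XPD the share was 26 peaks or 31.7% (21.9 to 42.9), against 9.54% (6.57 to 13.3). The rest of chromosome 1 had 16.3% for XPB (14.6 to 18.2) and 13.9% for XPD (11.8 to 16.2). The share in 16 to 18 Mb was thus above both comparisons in each list, beyond the counting intervals. The other windows had smaller shares than the rest of the chromosome. Their intervals overlapped, for XPB only at 14.6%, which does not show the shares to be equal.

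Median summit heights differed little. They were 12 fragments for XPB and 13 for XPD in 16 to 18 Mb, 11 and 12 in the other windows, and 12 and 13 in the rest of chromosome 1. Median widths were 967 bp for XPB and 1222 bp for XPD in 16 to 18 Mb, against 859 and 977 bp in the other windows and 825 and 936 bp in the rest of the chromosome. High scores and low summits met in part of these peaks, in the other windows of distal 1p as well. Of the 34 XPB peaks scoring 300 or more, 18 (52.9%) had fewer than 15 fragments at the summit, against 24 of 54 (44.4%) in the other windows of distal 1p and 80 of 266 (30.1%) in the rest of chromosome 1. Of the 26 such XPD peaks, 9 (34.6%) were that low, against 10 of 31 (32.3%) in the other windows and 29 of 141 (20.6%) in the rest of the chromosome.

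The widest XPB peak of the region ran from 17035800 to 17041059, 5260 bp, with 22 fragments and a score of 756. It overlapped several XPD peaks. Of these, those from 17034853 to 17037214 (21 fragments, score 499) and from 17037232 to 17038134 (18 fragments, score 314) scored over 300. An XPB peak from 16479622 to 16481907 scored 589 with only 10 fragments over 2286 bp. The widest XPD peak of the region, from 16946532 to 16950512, had 29 fragments and met a pair of XPB peaks, from 16946633 to 16947957 (39 fragments, score 509) and from 16948014 to 16950547 (23 fragments, score 762). At another site the helicases stood at close to equal height: XPB from 16278948 to 16280344 had 25 fragments and XPD from 16278246 to 16279633 had 24, with summits 15 bp apart.

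Of the other high-scoring XPB peaks of 16 to 18 Mb, that from 16075110 to 16076567 reached 986 with 19 fragments and its XPD partner 724 with 14. The XPB peak from 17246761 to 17248646 scored 720.3 with 14 fragments, and its XPD partner 188 with 10. In the opposite direction, the XPD peak from 16125378 to 16127799 scored 743 with 16 fragments, and its XPB partner 377 with 11. Most of these sites had a partner: 30 of the 34 XPB (88.2%) and 23 of the 26 XPD peaks (88.5%) scoring 300 or more overlapped the other list. Over all chromosomes 73.2% of XPB and 87.1% of XPD peaks with such scores did so. The XPD share was thus near its background value. The XPB share was above its own, with an interval of 72.5 to 96.7% that included it. The 4 XPB exceptions lay from 16470944 to 16472512 (score 431), 17045998 to 17048168 (326), 17576628 to 17577954 (344) and 17912184 to 17912996 (319). Those of XPD lay from 16276175 to 16277729 (465), 16562141 to 16563133 (409) and 17959123 to 17960776 (327). Of the XPB exceptions the first was 0.277 kb from the nearest XPD peak and the last 14.98 kb, so some stood beside a site of the other helicase and others did not.

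Across distal 1p, 170 XPB peaks, or 28.7% (25.1 to 32.5), overlapped an XPD peak by at least 1 bp, where the share over all chromosomes was 26.6%. Of the XPD peaks 166, or 40.8% (35.97 to 45.7), overlapped an XPB peak, where the share over all chromosomes was 38.7%. Both shares were close to these background values, and the overlap in the region as a whole was no result about it. The rest of chromosome 1 had 29.2% for XPB (26.96 to 31.4) and 45.6% for XPD (42.5 to 48.7).

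The overlap differed within the region. In 16 to 18 Mb, 54 XPB peaks or 45.4% (36.2 to 54.8) were shared, against 24.5% (20.7 to 28.6) in the other windows of distal 1p. For XPD it was 49 peaks or 59.8% (48.3 to 70.4), against 36% (30.8 to 41.5). The intervals did not overlap between these groups in either list, and they cover counting error only. Peaks were also denser, higher in score and wider there: XPB peaks covered 6.48% of 16 to 18 Mb and 1.66% of the other windows, XPD peaks 5.25% and 1.27%, and the part of this in the overlap was not tested. The outer windows stood at the low end. Of the 61 XPB peaks of the first 7 Mb, 9 (14.8%, 6.98 to 26.2) were shared, and of the 37 XPD peaks 9 (24.3%, 11.8 to 41.2). The windows from 1 to 2 Mb and from 10 to 11 Mb had 13 XPB peaks each, with 8 and 9 XPD peaks, and none was shared. These windows were picked after their values were seen.

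The overlap followed the score in distal 1p. Of XPB peaks scoring under 200, 13.7% (10.1 to 17.96) were shared, of those from 200 to under 300 33.7% (26.9 to 41.0), and of those at 300 or more 72.7% (62.2 to 81.7). The same bands in the rest of chromosome 1 had 13.96, 33.3 and 72.6%, so at a given score the XPB peaks of distal 1p were shared about as often. XPD peaks of distal 1p had 27.6% (22.0 to 33.7), 47.7% (38.2 to 57.4) and 82.5% (70.1 to 91.3) in these bands. The rest of the chromosome had 25.9, 59.5 and 93.6%. The intervals of each band overlapped, which does not show the shares to be equal. High-scoring XPD peaks without an XPB partner numbered 10 of 57 in distal 1p and 9 of 141 in the rest of chromosome 1. Over all chromosomes they numbered 223 of 1730. The shared percentage there, 87.1%, lay within the interval of distal 1p. Within 16 to 18 Mb the XPB shares were 17.4, 41.0 and 88.2% and the XPD shares 41.2, 54.5 and 88.5%. In the other windows of distal 1p they were 13.1, 31.7 and 63.0% for XPB and 25.4, 46.1 and 77.4% for XPD. At 300 or more the XPB share of distal 1p thus pooled a higher and a lower value. Their intervals were 72.5 to 96.7% and 48.7 to 75.7%. With the share of each score band taken from the rest of chromosome 1, 16 to 18 Mb would have had 37.0% of XPB and 56.4% of XPD peaks shared. The observed shares were 45.4 and 59.8%, and their counting intervals included these values. The bands are broad, and the part of score differences within a band was not tested.

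**Figure D3:**
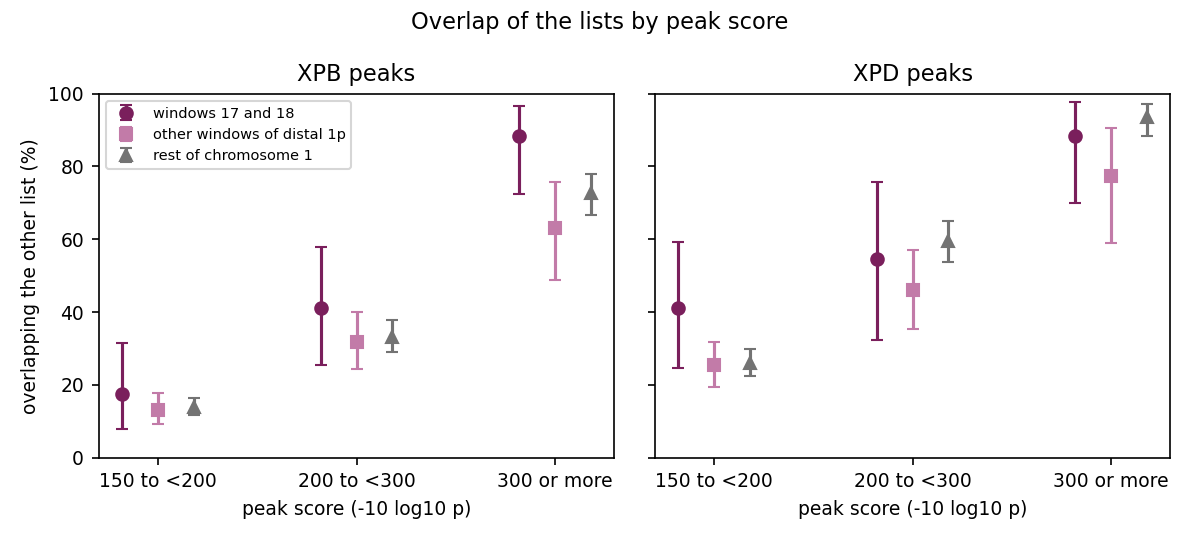
Percentage of XPB peaks (left) and XPD peaks (right) that overlapped the other list, by peak score, in windows 17 and 18 (16 to 18 Mb), the other windows of distal 1p and the rest of chromosome 1; bars are 95% Clopper-Pearson intervals of counting error. In every group the share is lowest under 200 and highest at 300 or more, from 17.4 to 88.2% for XPB in windows 17 and 18.

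Outside 16 to 18 Mb the heights were modest. Only 5 XPB and 3 XPD summits of the other 26 windows reached 30 fragments, against 4 and 5 in the 2 windows themselves. Summits of 20 fragments or more made up 5.06% of XPB and 7.86% of XPD peaks in distal 1p, against 9.58% and 12.5% in the rest of chromosome 1 and 6.64% and 8.74% over all chromosomes. The share of tall summits in the region was thus below that of the rest of its chromosome and nearer to that of the genome. The region was not uniform in this. In 16 to 18 Mb the share was 11.8% for XPB and 17.1% for XPD, on 14 summits in each list. In the other windows of distal 1p it was 3.38% and 5.54%. Over the peaks of distal 1p, Spearman's rho between height and score was 0.44 for XPB and 0.39 for XPD, and between width and score it was 0.49 and 0.44, as a description across peaks of 1 library.

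The tallest site outside these windows was at 25 Mb. Its XPB peak from 25050645 to 25052325 had 39 fragments and a score of 1105, and its XPD peak from 25049710 to 25052908 had 67 fragments and a score of 1316. Next in the XPB list came a peak from 6550758 to 6552797, with 38 fragments and a score of 1045, whose XPD partner from 6550743 to 6552792 had 27 and 794 and a summit 2 bp away. At 27816616 to 27817519 the summits were 37 fragments in XPB and 25 in XPD, and at 23345586 to 23345966 they were 31 and 23. Its narrow width, 381 bp, set the last apart from the broad peaks above. The XPD peak from 8021156 to 8021738 had 28 fragments, and XPB had 27 there, with summits 17 bp apart. The XPB peak from 16482395 to 16483073 closed the 10 tallest with 28 fragments and a score of 761, where XPD had 20 and 256. Among the 10 tallest XPD summits was also that from 17053727 to 17055128, where XPB had 20 fragments and XPD 32.

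A site near 12 Mb was tall in both lists with a different shape in each. XPB had a peak from 11967611 to 11969338 with 35 fragments, a score of 1271 and a summit at 11968636, and a second from 11969595 to 11970105 with 15 fragments. XPD had 3 peaks over the same stretch: from 11967758 to 11968470 with 56 fragments, from 11968498 to 11969528 with 12, and from 11969616 to 11970672 with 46. The tall XPD summits, at 11968221 and 11969947, stood on either side of the tall XPB summit. The XPB summit lay 415 bp from the first of them.

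A few tall summits belonged to 1 list. Of the summits of 20 fragments or more in distal 1p, 5 of 30 XPB and 2 of 32 XPD summits had no partner. Over all chromosomes 415 of 1432 and 254 of 1273 had none. Shared were thus 83.3% (65.3 to 94.4) and 93.75% (79.2 to 99.2), and these intervals included the 71.0% and 80.0% of all chromosomes. The tallest single-list summit was an XPD peak from 16920814 to 16921969 with 34 fragments. Its score was only 156, near the lowest score listed, and the nearest XPB peak was 11.9 kb away. The next XPD-only summits were from 27179412 to 27180695 (20 fragments, score 297), 10309653 to 10310216 (19, score 162), 16562141 to 16563133 (18, score 409) and 16953794 to 16954376 (18, score 270.2). XPB-only summits were no taller than 22 fragments: from 11322696 to 11323719 (22, score 315), 16933866 to 16935708 (21, score 278), 24307221 to 24307764 (21, score 226), 12540879 to 12541382 (20, score 232) and 10134427 to 10134754 (20, score 164). The XPB-only peak at 12540879 was 68.3 kb from the nearest XPD peak, whereas that at 16933866 was 1.39 kb from one. With 1 library per antibody none of these has a replicate check.

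Paired peaks, each the other's largest overlap, numbered 162 in distal 1p. The median distance between paired summits was 95.5 bp (quartiles 26 and 336), and 51.2% (43.3 to 59.2) were within 100 bp, against 83.0 bp and 52.9% (48.3 to 57.6) over the 459 pairs in the rest of chromosome 1. In 16 to 18 Mb the median was 130 bp over 47 pairs (95% order-statistic interval 79 to 292), against 79 bp over 115 pairs in the other windows (39 to 131), and these intervals overlapped.

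Heights in the pairs followed each other. The median log2 ratio of XPB over XPD height was -0.11 in distal 1p (interquartile range -0.35 to 0.16), against -0.10 in the rest of chromosome 1 (-0.38 to 0.18), without adjustment for depth. Relative to the median of all pairs it was 0.00 in distal 1p. Spearman's rho between the heights was 0.50 over the 162 pairs and 0.61 over the pairs of the rest of the chromosome, as a description across sites of 1 pair of libraries that are cut off at the score threshold.

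Few pairs departed from the common ratio. In distal 1p 1 pair had an XPB over XPD height more than 2-fold above the median ratio, and 1 pair more than 2-fold below it, where 1.25% and 0.759% of the pairs of all chromosomes did. Both were at the site near 12 Mb. In the first, the XPB peak from 11967611 to 11969338 met most of its overlap in the low middle XPD peak (35 and 12 fragments, a log2 ratio of 1.65 relative to the median). That XPB peak also overlapped the XPD peak from 11967758 to 11968470, with 56 fragments, which was not its pair. The second, from 11969595 to 11970105, had 15 fragments in XPB and 46 in XPD (-1.51, 95% counting interval -2.46 to -0.64). The part of the caller's division of the site in these departures was not tested.

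In 32 pairs both summits had 15 fragments or more, and there the relative log2 ratio ran from -1.51 to 0.67. The site at 25 Mb came next on the XPD side (39 and 67 fragments, -0.67, interval -1.28 to -0.08). The other low ratios were at 17053720 to 17055073 (20 and 32, -0.57), 22345280 to 22346052 (15 and 23, -0.51) and 27226794 to 27227226 (15 and 23, -0.51), with intervals that included 0. On the XPB side the highest ratio was 0.67, at 27816616 to 27817519 (interval -0.10 to 1.47). It was followed by 0.60 at 6550758 to 6552797, 0.59 at 16482395 to 16483073, 0.54 at 23345586 to 23345966 and 0.52 at 25558723 to 25559581 (20 and 15 fragments). The intervals of all 5 included 0, and none of these intervals is adjusted for picking extremes.

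The limit of the region fell between peaks in both lists. The last peaks inside it were a pair from 27998328 to 27999168 for XPB (12 fragments) and from 27998345 to 27999285 for XPD (17 fragments). The first outside were an XPB peak from 28051496 to 28052423 (12 fragments) and an XPD peak from 28156735 to 28157560 (19 fragments).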

How the data were processed

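The deposited files are peak lists, 1 per ChIP library. Per the submitters' processing notes, Bowtie 0.12.7, MACS 1.4 and hg19 were used; the control and caller settings are not given in the sources used here. The deposited peak score was read as the log10 of the p-value times 10 with its sign reversed and the deposited summit signal as the fragment pileup height, after the usual MACS layout. The lowest score was 150 in either list. Read depth is unknown, so precision is given as exact Poisson and Clopper-Pearson 95% intervals of counting error, and medians carry order-statistic intervals; PCR copies are not independent molecules.

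Samples were grouped by their antibody fields. Peaks were placed by summit in 1 Mb windows, from the first to the last with a peak of either list. Overlap needed at least 1 bp, and pairs were mutually largest overlaps. Positions are 1-based hg19. No test was run, since each antibody has 1 library. Members and lists were chosen with earlier results of these data known. Named peaks were the 10 tallest of each list, the 5 tallest without a partner, all scoring 300 or more in 16 to 18 Mb, the 5 highest and 5 lowest height ratios with at least 15 fragments at both summits, and those at the edges. Of the XPB and XPD peaks in 16 to 18 Mb scoring 300 or more, only part is named and the rest is given by counts. Runs, 100 kb bins and score bands were added after the data were seen. Alternatives varied the score threshold, the overlap rule, list length and windows. Functions were tested on simulated lists. The planned assignment to transcription starts and the sequences were left out, for want of hg19 annotation and sequence. The software was scipy 1.17.1, pandas 2.3.3 and numpy 2.4.6 under Python 3.11.15, with matplotlib 3.10.9 for plots.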

Additional observations from a re-analysis of the deposited data

How the results depend on the processing

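Of 90 alternative values, 47 stayed within the counting interval of the reported value, 42 moved outside it and 1 changed direction. The excess of peaks in distal 1p over the rest of chromosome 1, and in 16 to 18 Mb over the other windows, kept its direction in both lists under every alternative run. The ratio of XPB to XPD peaks in distal 1p was 0.988 with the XPB list shortened to the length of the XPD list, which by construction brings the ratio over the genome to 1. It was 1.62 and 1.54 at scores of at least 200 and 300, and in 16 to 18 Mb it was 1.11 at equal list length.

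The density ratio of distal 1p over the rest of chromosome 1 was 4.75 for XPB and 4.50 for XPD as medians over windows, 2.43 and 2.68 with empty windows left out, and 2.48 and 2.74 without 16 to 18 Mb, a setting chosen after seeing the data. The ratio of 16 to 18 Mb over the other windows was 4.77 and 5.2 at scores of at least 200 and 8.19 and 10.9 at scores of at least 300. Peaks per Mb in distal 1p were 9.71 and 6 at scores of at least 200 and 3.14 and 2.04 at 300, and 14.4 for XPB at equal list length.

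The shared percentage in distal 1p was 22.8 for XPB and 33.2 for XPD when overlaps had to span 50% of both peaks, 19.1 and 27.8 when summits had to be within 250 bp, 36.6 and 35.9 at equal list length and 37.5 and 56.1 at scores of at least 300. It was 46.4 for XPD at scores of at least 200 and 24.5 for XPB without 16 to 18 Mb. In 16 to 18 Mb it was 33.6 for XPB under the 50% rule, 25.2 for XPB and 36.6 for XPD under the 250 bp rule, and 54.9 for XPB at equal list length. The median summit distance was 40 bp when pairs needed summits within 250 bp, by construction.

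Median heights in distal 1p were 12 for XPB and 14 for XPD at scores of at least 200, 15 and 17 at 300, and 12.5 and 14 for shared peaks. Median scores were 254 and 262, 402 and 367, and 257 and 226 under the same settings. No paired analysis was possible because each antibody has 1 library. Since depth is unknown and no peak under a score of 150 is listed, a site without a peak is not shown to be unbound. The cause of the other moves was not tested.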
